A study of Arabidopsis thaliana with 36 samples.

Results

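Root RNA of Arabidopsis thaliana was followed for 180 min after plants were moved to fresh medium, and 166 of the 32833 gene identifiers counted were at a raised level by 180 min without having been raised at 15 min. They were chosen by their own values. Each count was divided by its library total and scaled to CPM, the usual depth-corrected unit, and put on a log2(CPM + 1) scale. The mean over the 8 libraries at a time was then set against the mean of the 4 libraries at 0 min, and this difference is called the rise. A gene was kept where its mean over all 36 libraries was at least 2 CPM, its rise at 180 min was at least 1 and its rise at 15 min was under 0.3. Of the identifiers, 17545 met the CPM minimum and 169 met all 3 conditions. The rule leaves out 10 genes by name, of which 3 met it (CYP735A2, GDH2 and PRR3), while GI, TOC1, PRR5, GRP7, ASN1, bZIP1 and AT4G21870 did not. The rises at 15 and 180 min are therefore a description and carry no test. All 166 genes are annotated as protein-coding, and all 166 passed the filter on low counts of the tests below.

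The plants were 7-day-old seedlings of the Col-0 ecotype, the usual laboratory line, raised on a mesh over medium with 1 mM KNO3 and moved 2 h after dawn to new medium with either 1 mM or 10 mM KNO3. Roots were collected 15, 45, 90 and 180 min later. At 0 min the mesh was lifted and returned to its own plate, so this group was handled but met no new medium. Each of the 9 groups had 4 libraries, numbered BR1 to BR4 in their titles, and every library joined 2 plates. Libraries that share a number are called replicates 1 to 4, or batches 1 to 4, here. No genotype other than Col-0 is used, potassium changed together with nitrate, and whole roots were sampled, so more cells of a type and more RNA per cell cannot be told apart. By 180 min the plants were 5 h past dawn, so time since the move and time of day cannot be told apart in any comparison between times.

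Plant genes reach high levels at set hours through the circadian clock, in which the morning proteins CCA1 and LHY repress genes whose promoters carry the evening element. A second set of root genes follows carbon supply: the kinase SnRK1 signals low energy through bZIP factors such as bZIP63, and dormancy-associated and amino acid-breaking genes are among its known responses. Nitrate itself acts within minutes on its own transport and reduction genes, and over a longer time roots adjust sulfate uptake, amino acid synthesis and peptide signals to it.

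Total counts ran from 1376404 to 7512410 per library, with a median of 5126926. Batch medians were 2155735, 4657127, 6246828 and 6446532. The library of batch 4 on 1 mM at 45 min stood apart, with the lowest total and the lowest median correlation with the libraries of its own group (0.923), and the main counts of calls are given without it as well. Markers of root hairs, endodermis, xylem, phloem and the dividing root tip each had a summed level above 0 in every library.

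The promoters of these genes are shown because a clock motif was found in them more often than in promoters at large. A promoter here is the 250 bases before the annotated gene start, read from the RefSeq annotation of build TAIR10.1 on the strand of the gene, and 8 motifs were searched by their exact letters on both strands. The evening element AAATATCT was present in 26 of 166 promoters (15.7%), against 4.84% of the 17535 promoters of genes with a mean of at least 2 CPM and 4.55% of all 33054 promoters. MEE14 carried it on the opposite strand at chr2:6922162-6922411 (minus strand), and CXXS1 carried 2 copies at chr1:3874146-3874395 (plus strand). The defensin-like gene AT4G22230 carried it at chr4:11761983-11762232 (plus strand), and CCL at chr3:9827432-9827681 (plus strand). The promoter of DRM2 (AT2G33830) at chr2:14310609-14310858 (minus strand), the gene with the largest rise, is set beside them and held only a GATA motif. Capitals mark any of the 8 motifs.
MEE14: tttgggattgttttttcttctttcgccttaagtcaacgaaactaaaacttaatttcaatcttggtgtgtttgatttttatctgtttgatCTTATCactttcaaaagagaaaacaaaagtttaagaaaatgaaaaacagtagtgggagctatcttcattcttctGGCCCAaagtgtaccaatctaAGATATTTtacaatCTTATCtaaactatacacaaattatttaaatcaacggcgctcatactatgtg
CXXS1: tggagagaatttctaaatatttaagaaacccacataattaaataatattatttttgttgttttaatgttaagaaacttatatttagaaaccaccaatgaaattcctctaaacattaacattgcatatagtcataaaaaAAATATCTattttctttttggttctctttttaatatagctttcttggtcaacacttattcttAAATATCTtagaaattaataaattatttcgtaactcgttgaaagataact
AT4G22230: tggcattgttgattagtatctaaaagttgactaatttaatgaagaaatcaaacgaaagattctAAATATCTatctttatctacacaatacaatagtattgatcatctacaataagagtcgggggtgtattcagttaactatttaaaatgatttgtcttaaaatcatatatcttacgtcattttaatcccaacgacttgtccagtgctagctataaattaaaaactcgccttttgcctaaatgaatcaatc
CCL: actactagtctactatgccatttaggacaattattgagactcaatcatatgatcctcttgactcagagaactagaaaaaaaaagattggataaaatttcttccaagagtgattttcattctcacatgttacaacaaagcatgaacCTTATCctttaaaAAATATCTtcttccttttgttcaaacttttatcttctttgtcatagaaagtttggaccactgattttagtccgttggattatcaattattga
DRM2: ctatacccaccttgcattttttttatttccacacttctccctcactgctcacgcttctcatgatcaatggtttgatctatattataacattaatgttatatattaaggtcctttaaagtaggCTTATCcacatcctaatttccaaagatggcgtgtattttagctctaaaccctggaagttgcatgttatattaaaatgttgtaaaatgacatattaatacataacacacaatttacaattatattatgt

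In the promoters printed above, the evening element of MEE14 began 66 bases before the start, and those of CXXS1 began 112 and 50 bases before it. Among the 26 promoters 4 held 2 copies, and 17 of the 30 copies lay within 100 bases of the start. The GATA motif GATAAG was in 18.1% of the 166 promoters against 12.01% of the 17535, and site II (TGGGCC), a motif of growth and ribosome genes, was in 6.02% against 16.8%. In percentage points the shares differed less for the G-box CACGTG (7.23% and 7.35%), the CCA1-binding site AAAAATCT (4.82% and 6.75%), the telo-box AAACCCTA (1.81% and 3.53%) and the dehydration elements ACCGAC (3.61% and 5.26%) and GCCGAC (3.01% and 3.02%). None of the 8 motifs was found in 93 promoters. These shares are descriptions of letters, and no factor was measured on them.

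**Figure D1:**
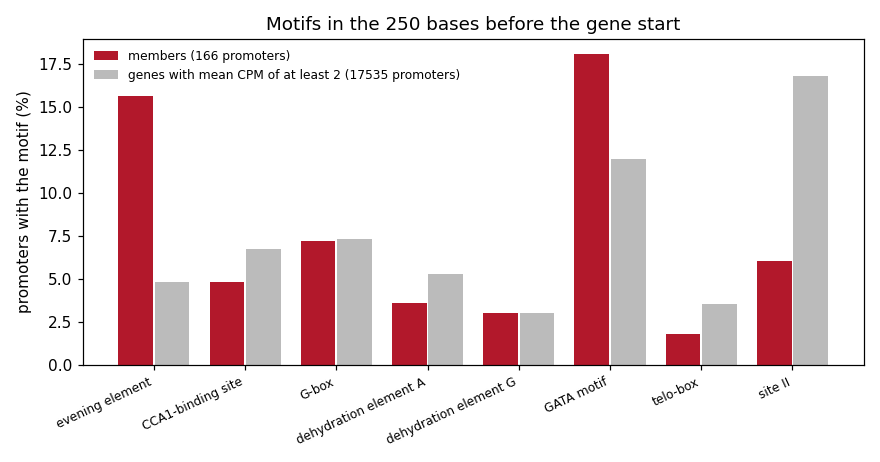
Bars give the percentage of promoters (250 bases before the gene start, either strand) that hold each motif, for the 166 genes and for the 17535 promoters of genes with a mean of at least 2 CPM. The evening element stands at 15.7% against 4.84%, and site II at 6.02% against 16.8%.

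The rises were spread over the whole time course. At 180 min the median rise was 1.28 (range 1.00 to 3.67) on the log2(CPM + 1) scale, and 18 genes reached at least 2. The median rise was 0.04 at 15 min, 0.41 at 45 min and 0.96 at 90 min. The description of these genes as rising only late did not hold for all of them: 23 already had a rise of at least 1 at 45 min and 78 at 90 min. In 35 genes the rise at 90 min exceeded that at 180 min, and in 10 the rise at 45 min did. What they share is a low rise at 15 min and a raised level at 180 min, and 130 of 166 had their highest mean at 180 min.

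Split by whether at least 50% of the final rise had been reached at 90 min, 124 genes were early risers and 42 late risers. Early risers had a median rise of 0.50 at 45 min and 1.12 at 90 min, and late risers of 0.01 and 0.46, while both ended near 1.28. The evening element was in 10 of 42 late risers (23.8%) and 16 of 124 early risers (12.9%). In 142 genes every one of the 8 libraries at 180 min was above all 4 at 0 min. The rise at 180 min was above 0 in each of the 4 batches for all 166 genes, and at least 1 in each for 62. These counts come from libraries that the rule used to choose the genes, and no share over all genes is set beside them.

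**Figure D2:**
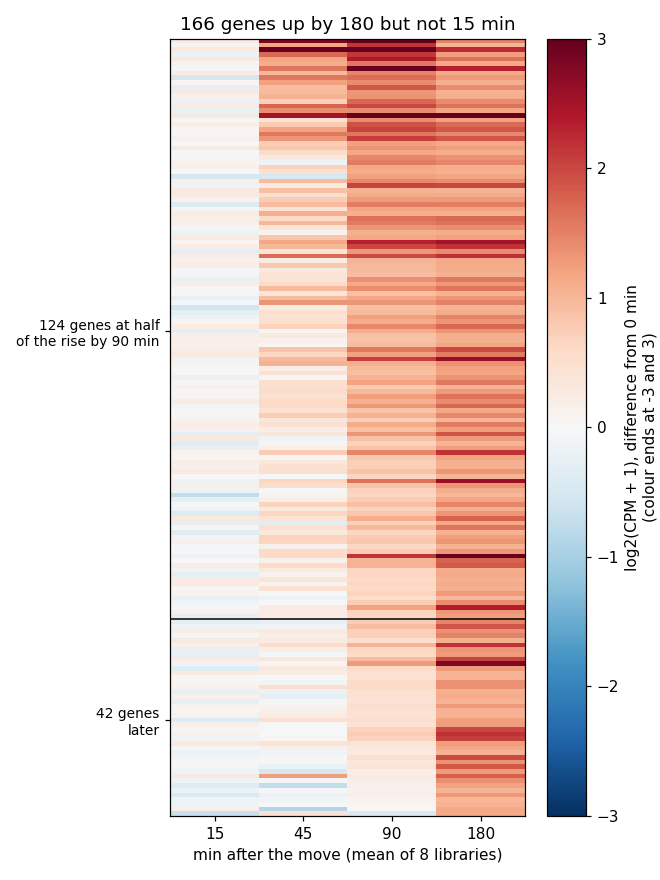
Each row is 1 of the 166 genes, sorted by the share of the final rise reached at 90 min, and each column a time in min. Colour gives the difference of the mean log2(CPM + 1) of 8 libraries from the mean of the 4 at 0 min. The line parts the 124 genes that had reached 50% of their final rise by 90 min from the 42 that had not.

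Genes just inside and just outside the thresholds had nearly equal values. For the rise at 180 min, AT5G26290, AT1G60680 and HDG1 lay inside at 1.0006, 1.0043 and 1.0074, and GLYI4, EDA36 and AT3G59940 outside at 0.9994, 0.9974 and 0.9953. For the rise at 15 min, AT2G38240, AT1G47400 and AT4G03420 lay inside at 0.297, 0.293 and 0.293, and UGE3, ATCTH and AT4G01870 outside at 0.302, 0.302 and 0.310. For the mean level, AT3G04550, PRX52 and CCL lay inside at 2.06, 2.07 and 2.09 CPM, and AT5G37450, AT1G33055 and BGLU18 outside at 1.99, 1.90 and 1.90 CPM.

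The libraries at 45 and 90 min entered the choice of genes only through the mean level, so the change between them was tested. It lies within the span from 15 to 180 min over which the rule requires a rise, and its share of calls is to be read with that. It asks which genes were climbing in the middle of the time course, with both concentrations averaged. Of the 166 genes, 83 rose and 2 fell, at a Benjamini-Hochberg adjusted p under 0.05 over 18768 genes in edgeR's quasi-likelihood test. Over all genes tested 6.12% were called, 2.82% higher and 3.3% lower. The largest increases were in AT4G15990 (uncharacterized, 2.31 ± 0.29 on the log2 scale, SE), AT2G22122 (uncharacterized, 1.68 ± 0.20), the peptide gene RGF7 (1.64 ± 0.26), AT2G15780 (cupredoxin family, 1.63 ± 0.30) and the abscisic acid-responsive bZIP factor ABF1 (1.61 ± 0.24). The median log2 fold change was 0.54 over the 166 genes and -0.00 over all genes tested, and 157 of 166 values were above 0.

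The step was of like size in each batch. Its median over the 166 genes was 0.57, 0.56, 0.55 and 0.57 in replicates 1 to 4, and 142, 151, 140 and 150 genes went up. Of genes with a mean of at least 2 CPM, 57.5%, 46.4%, 53.7% and 49.4% went up in the same batches. The step was upward in 4 of 4 batches for 111 of the 166 genes, 77 of them among the 83 called higher on the same libraries. The share of all genes upward in 4 of 4 batches was not computed, so the 111 is a description. In 27 genes all 8 libraries at 90 min were above all 8 at 45 min, a description with no share over all genes set beside it. Without replicate 4 of 1 mM at 45 min 81 genes were called in either direction, against 85 with it, and 33 in place of 27 had no overlap. By role, the counts described in turn from here moved by at most 2 genes without that library: carbon and nitrogen metabolism from 7 to 5, secreted proteins from 3 to 2, hormone enzymes from 2 to 1, redox enzymes from 5 to 4, transporters from 10 to 9, kinases from 6 to 5 and transcription factors from 5 to 6. Without batch 3 the number of genes called in either direction was 48, without batch 2 it was 50 and without batch 4 it was 55. No share over all genes is set beside these 3 counts.

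As a set of the same end point, 172 genes met the same limits at 180 min and for mean level but had a rise of at least 0.3 at 15 min, with the genes left out by name left out here too. In them 47 (27.3%) rose from 45 to 90 min and 7 fell (46 and 8 without the library that stood apart), with a median log2 fold change of 0.27. Their median rise was already 1.18 at 45 min. The evening element was in 8.72% of their promoters. The difference between the sets was not tested, since both were chosen on these libraries.

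The step was seen at each concentration. At 1 mM 41 genes rose and 0 fell, where 2.16% of all genes tested were called (0.996% higher and 1.17% lower), and at 10 mM 36 rose and 0 fell, where 2.04% were (0.9% higher and 1.14% lower). Called at both were 27. Without replicate 4 of 1 mM at 45 min 37 were called at 1 mM, and 24 of these were called at 10 mM with all libraries. Without batches 2, 3 and 4 the counts were 20, 16 and 25 at 1 mM and 18, 12 and 16 at 10 mM, and with only the groups compared in the fit 20 at 1 mM. In all 149 of 166 had the same sign at both. No share over all genes is set beside this count, the 27 called at both or the counts without a batch. With the batch as a replicate block the counts were 71 at 1 mM, all higher, and 70 at 10 mM, 68 of them higher, where 5.90% and 4.91% of all genes tested were called. The difference between the 2 steps was called in 0 of 166 genes by edgeR (0.0% of all tested). With the block (2 of all genes tested) and by DESeq2 (1 of all genes tested) it was called in 0 of 166 as well. In edgeR without the block 10 of the 166 had an unadjusted p under 0.05, where 5.26% of all genes tested did.

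**Figure D3:**
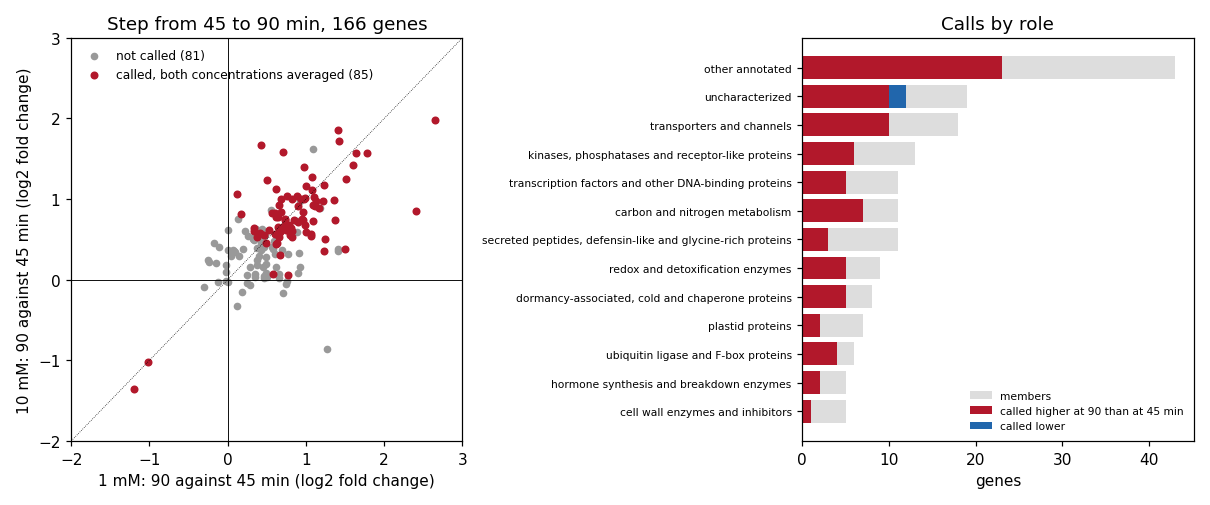
Left, the log2 fold change from 45 to 90 min at 10 mM (vertical) against that at 1 mM (horizontal) for each of the 166 genes, with the 85 called in the average of both in red and the diagonal dotted. Right, the number of genes in each role, with those called higher in red and lower in blue. Points scatter along the diagonal, and the 2 genes called lower, AT1G47400 and AT1G47395, lie at the lower left.

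Among the 8 dormancy-associated, cold and chaperone proteins, 5 rose from 45 to 90 min and 0 fell. DRM2 (AT2G33830), a dormancy-associated protein whose mRNA accumulates in resting buds, had the largest rise of all at 180 min, 3.67. Its CPM was 82.3, 63.1, 64.9 and 70.2 in replicates 1 to 4 at 0 min, and at 180 min 750.3, 818, 1252 and 941 at 1 mM and 773, 782, 989 and 985 at 10 mM. At 45 min its 8 libraries ran from 68.5 to 155 CPM (median 107), and at 90 min from 229 to 406 (median 314). The libraries at 0 and 45 min overlapped, and those at 45, 90 and 180 min did not. The step from 45 to 90 min was 1.51 ± 0.16 (adjusted p = 1.1e-08).

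DYL1, the close relative of DRM2, followed the same course at a smaller size. It ran from 50.8 to 122 CPM at 45 min (median 77.6) and from 119 to 184 at 90 min (median 139), so that the ranges overlapped slightly, and reached 199 to 327 at 180 min (median 245). Its step was 0.84 ± 0.15 (adjusted p = 0.00016). RCI2A, a small membrane protein induced by cold and salt, had 624 to 764 CPM at 0 min and 1571 to 2233 at 180 min, and rose by 0.69 ± 0.11 in the step (adjusted p = 3.1e-05). The J-domain cochaperones J8 (0.81 ± 0.10) and AT1G56300 (0.71 ± 0.18) also rose. KIN2, the cold- and abscisic acid-induced gene, had a step of 0.41 ± 0.15 with an adjusted p of 0.098, and 0.0046 with the replicate block. The RCI2A relative AT4G30660 (0.29 ± 0.12) and the small heat shock protein HSP17.4 (0.37 ± 0.32) did not pass, the former with an adjusted p of 0.018 with the block.

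**Figure D4:**
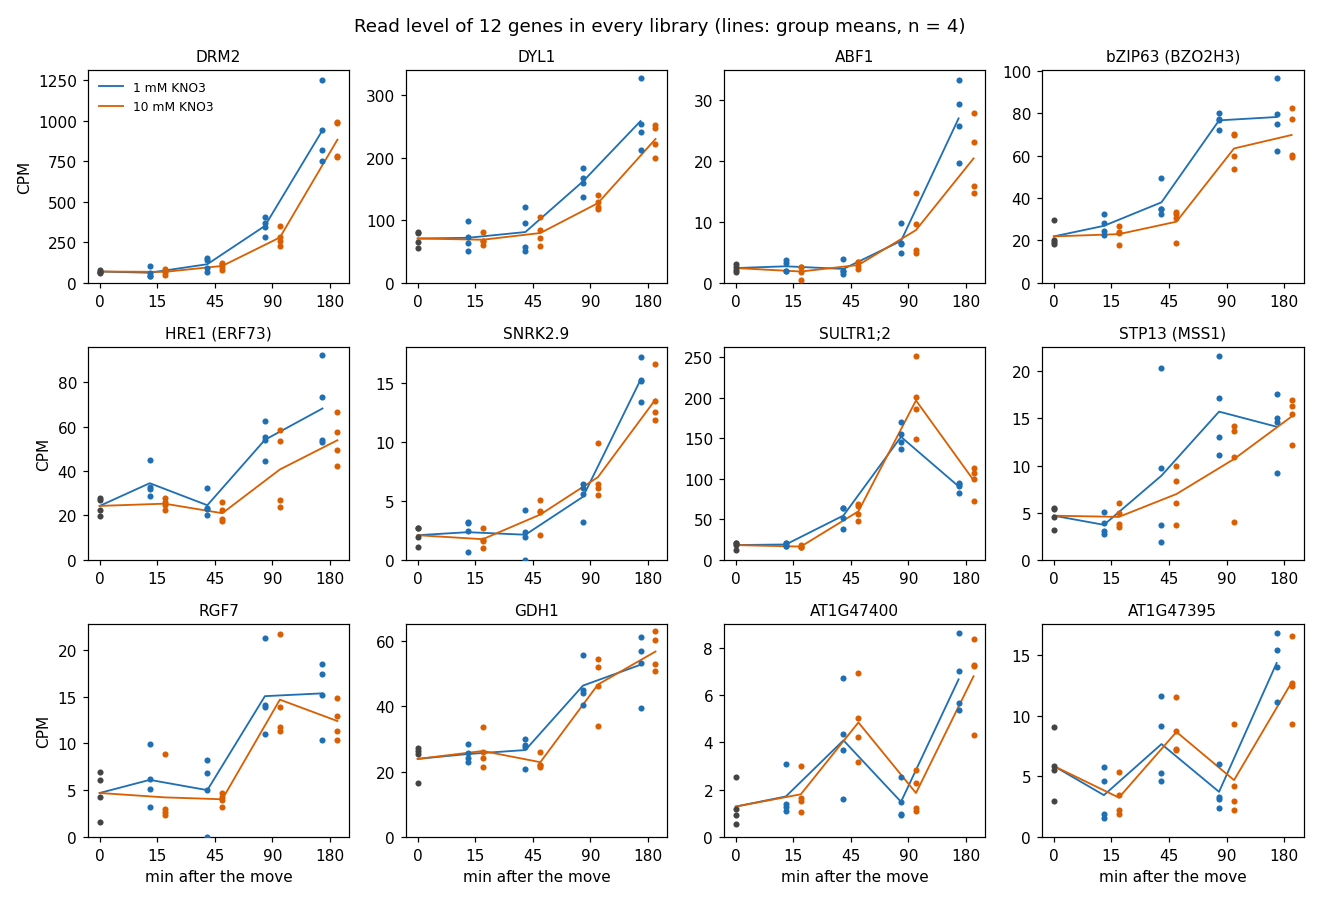
CPM (vertical, from 0) of 12 genes in every library by min after the move (times drawn at equal spacing, not to scale), grey at 0 min, blue at 1 mM and orange at 10 mM KNO3, with lines through the group means (n = 4). DRM2, DYL1, ABF1 and SNRK2.9 are highest at 180 min, SULTR1;2 is highest at 90 min, and AT1G47400 and AT1G47395 dip at 90 min.

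Of the 11 transcription factors and other DNA-binding proteins, 5 rose in the step and 0 fell. ABF1 binds abscisic acid response elements. Its CPM was 2.67, 2.11, 3.08 and 1.85 at 0 min, 1.45 to 3.84 over the 8 libraries at 45 min (median 2.51), 4.86 to 14.7 at 90 min (median 6.40) and 14.7 to 33.2 at 180 min (median 24.4). The libraries at 0 and 45 min overlapped, and the libraries at 45, 90 and 180 min did not overlap. The step was 1.61 ± 0.24 (adjusted p = 1.4e-05).

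bZIP63 (BZO2H3), a bZIP factor phosphorylated by SnRK1, took its step earlier and then levelled off. It stood at 19.1 to 49.5 CPM at 45 min (median 32.99), 53.8 to 80.2 at 90 min (median 71.1) and 59.2 to 96.6 at 180 min (median 76.0). The step was 1.08 ± 0.13 (adjusted p = 3.5e-07), and the 45 and 90 min libraries did not overlap. HRE1 (ERF73), an ethylene response factor of the low-oxygen response, ran from 17.56 to 32.2 CPM at 45 min (median 22.6) and from 23.9 to 62.6 at 90 min (median 53.9). Its step was 1.05 ± 0.17 (adjusted p = 2.6e-05), although 2 libraries of 10 mM at 90 min, at 26.98 and 23.9, lay within the 45 min range.

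FBH4, a bHLH activator of the flowering gene CONSTANS, rose by 1.07 ± 0.21 (adjusted p = 0.00074), and the PLATZ family gene AT1G76590 by 0.88 ± 0.24 (adjusted p = 0.021). WRKY63 (ABO3), which acts in abscisic acid and drought responses, had a step of 0.95 ± 0.31 with an adjusted p of 0.059, and 0.013 with the block. The 5 others did not pass in either fit. Of these RAP2.9, EDF3, bZIP8 and the bHLH gene AT1G62975 had reached rises of 1.68, 1.74, 1.59 and 1.59 by 45 min, whereas HDG1 stood at -0.13.

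Among 13 kinases, phosphatases and receptor-like proteins, 6 rose. SNRK2.9, of the SnRK2 family that includes the abscisic acid-activated kinases, had 1.07, 2.72, 1.91 and 2.69 CPM at 0 min and 11.9 to 17.2 at 180 min (median 14.3), with no overlap. From 45 to 90 min its range moved from 0 to 5.08 to 3.25 to 9.96, and the step was 1.01 ± 0.23 (adjusted p = 0.0032), which was lost without batch 3 (0.80, adjusted p = 0.20). CIPK21, a kinase activated by calcineurin B-like calcium sensors, rose by 0.74 ± 0.11, and WNK7, of the WNK kinases that lack the usual catalytic lysine, by 0.84 ± 0.23. The neighbouring receptor-like kinases CRK28 (0.50 ± 0.17) and CRK29 (0.14 ± 0.17) did not pass, CRK28 with an adjusted p of 0.0068 with the block. AT5G41280, AT5G41290 and AT5G41300 lie side by side and are of 1 family. Reads of such tandem copies can be split between them, so their single values (0.87, 0.14 and 1.05) are uncertain.

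Of 18 transporters and channels, 10 rose and 0 fell. SULTR1;2, the main high-affinity sulfate uptake carrier of roots, had 21.4, 12.7, 20.8 and 18.1 CPM at 0 min. Its CPM was 64.4, 51.4, 64.5 and 38.5 at 45 min and 169.8, 155, 136 and 145 at 90 min on 1 mM, and 66.5, 68.6, 47.8 and 56.6 and 251, 149, 201 and 185 on 10 mM. By 180 min it was 73.0 to 113 (median 94.2), below every library at 90 min. It thus peaked at 90 min, and the step of 1.57 ± 0.12 (adjusted p = 2.6e-12) had the smallest p of the 166 genes. SULTR3;5, a sulfate carrier of the root vasculature, had a step of 0.53 ± 0.17 with an adjusted p of 0.054, and 0.0011 with the block.

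The sugar carriers differed in how steady they were. STP13 (MSS1), a hexose-proton symporter, ran from 1.92 to 20.3 CPM at 45 min and from 4.05 to 21.6 at 90 min, and its step of 0.80 ± 0.24 (adjusted p = 0.031) was called with all libraries but in 11 alternatives it was not. These included leaving out batch 2 (0.41, adjusted p = 0.59) or batch 3 (0.92, adjusted p = 0.15), and any of 8 single libraries, of which 4 were from replicate 2. The major facilitator genes AT5G18840 (1.09 ± 0.14) and AT5G14120 (0.99 ± 0.15) had no overlap between 45 and 90 min. The MATE efflux proteins AT3G26590 (1.02 ± 0.15) and AT4G21910 (0.63 ± 0.10) rose likewise. TDT, which moves malate into the vacuole, rose by 0.71 ± 0.17, the borate exporter BOR1 by 0.50 ± 0.15 and the glutamate receptor-like channel GLR2.1 by 0.87 ± 0.26. Of the PILS auxin carriers of the endoplasmic reticulum, PILS7 (AT5G65980) rose by 0.74 ± 0.16, and PILS3 (AT1G76520) had a step of 0.47 ± 0.19 (adjusted p = 0.17, and 0.012 with the block).

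Of 11 enzymes and regulators of carbon and nitrogen metabolism, 7 rose. GDH1, glutamate dehydrogenase, which releases ammonium from glutamate, had 16.6, 26.3, 27.2 and 25.5 CPM at 0 min, 20.7 to 30.1 at 45 min (median 24.1), 34.03 to 55.8 at 90 min (median 45.6) and 39.4 to 62.9 at 180 min (median 55.1). The libraries at 45 min overlapped those at 0 min, and there was no overlap from 45 to 90 min, with a step of 0.90 ± 0.11 (adjusted p = 3.0e-07). The trehalose phosphate synthase-like gene TPS10 rose by 0.49 ± 0.15, the cytosolic invertase CINV1 by 0.45 ± 0.13, the beta-galactosidase BGAL2 by 0.91 ± 0.17 and the CTP synthase AT1G30820 by 0.96 ± 0.12.

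GLT1, the NADH-dependent glutamate synthase of roots, moved before 90 min. It had 175 to 225 CPM at 0 min, 329 to 493 at 45 min (median 439), 394 to 772 at 90 min (median 495) and 353 to 538 at 180 min (median 433). Every library at 45 min lay above all at 0 min, and the later ranges overlapped. Its step was 0.31 ± 0.10 with an adjusted p of 0.059, and 0.0033 with the block. ADH1 (alcohol dehydrogenase), NADP-ME2 (malic enzyme) and AGT (a photorespiratory aminotransferase) did not pass in either fit.

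Among 11 secreted peptides, defensin-like and glycine-rich proteins, 3 rose. RGF7, of the root meristem growth factor peptides, had 1.60, 4.23, 6.90 and 6.04 CPM at 0 min, 0 to 8.17 at 45 min (median 4.46) and 10.97 to 21.7 at 90 min (median 13.9). All libraries at 90 min lay above all at 45 min, and the range at 180 min (10.3 to 18.4) overlapped that at 90 min. The step was 1.64 ± 0.26 (adjusted p = 2.4e-05). The potato inhibitor-type protease inhibitor UPI (0.73 ± 0.22) and the defensin-like AT4G22230 (0.41 ± 0.13) rose. The defensin-like AT4G22212 (adjusted p = 0.15, and 0.0013 with the block), the cysteine-rich LCR69 (0.061 and 0.00022) and the signal peptide gene CLE5 (0.26 and 0.016) passed with the block alone. The neighbours GRP9 and AT2G05510, both glycine-rich, had most of their change after 90 min, with rises of 0.34 and 0.19 at 90 min and 1.35 and 1.40 at 180 min.

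Of 9 redox and detoxification enzymes 5 rose, among them the glutathione transferase GSTF14 (0.70 ± 0.21), the glucosyltransferase UGT73B1 (0.68 ± 0.15) and the thioredoxin-like CXXS1 (0.72 ± 0.17). CXXS1, whose promoter with 2 evening elements is printed above, had 3.70 to 8.72 CPM at 45 min, 6.48 to 13.3 at 90 min and 21.4 to 32.9 at 180 min, and its rise was 0.68 at 90 min and 2.06 at 180 min. Of 6 ubiquitin ligase and F-box genes 4 rose, including ATL8 (0.94 ± 0.26). Of 5 enzymes of hormone metabolism 2 rose, the brassinosteroid synthesis gene DET2 (0.33 ± 0.10) and the salicylate glucosyltransferase UGT74F2 (0.59 ± 0.16). IPT3, which makes cytokinin in response to nitrate, had a step of 0.71 ± 0.29 (adjusted p = 0.18, and 0.048 with the block), with 1.60 to 3.19 CPM at 0 min and 4.01 to 9.83 at 180 min. Of 7 plastid proteins 2 rose, and of 5 cell wall enzymes and inhibitors 1, the pectin methylesterase inhibitor family gene AT1G14890 (0.80 ± 0.18).

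The remaining 62 genes were 43 with other annotations, of which 23 rose, and 19 classed as uncharacterized, of which 10 rose and 2 fell. That class rests on the RefSeq description alone, and a function may be known from other sources. The serine carboxypeptidase-like gene scpl30 had 0 to 1.81 CPM at 0 min, 4.16 to 11.8 at 45 min, 17.02 to 35.7 at 90 min and 9.95 to 21.4 at 180 min, with a step of 1.38 ± 0.19 (adjusted p = 2.2e-06). IGMT5, which methylates indole glucosinolates, went from 356 to 407 CPM at 0 min to 703 to 1047 at 90 min and 940.03 to 1469.6 at 180 min, with a step of 0.69 ± 0.09 (adjusted p = 2.0e-06). AT2G38240, a 2-oxoglutarate-dependent oxygenase, had 0 to 0.734 CPM at 0 min, 6.01 to 35.6 at 45 min and 3.28 to 11.3 at 180 min. It was high at 45 and 90 min and had come down by 180 min, with a step of 0.44 ± 0.24 (adjusted p = 0.35).

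The 2 genes that fell from 45 to 90 min are neighbours. AT1G47400 had 0.534, 0.906, 1.17 and 2.52 CPM at 0 min, 1.58 to 6.93 at 45 min (median 4.29), 0.928 to 2.84 at 90 min (median 1.35) and 4.30 to 8.62 at 180 min (median 7.13). AT1G47395 had 5.88, 9.06, 2.94 and 5.54 CPM at 0 min, 4.64 to 11.6 at 45 min (median 8.00), 2.26 to 9.32 at 90 min (median 3.22) and 9.32 to 16.8 at 180 min (median 13.4). At 15 min AT1G47400 had 1.07 to 3.09 CPM and AT1G47395 1.55 to 5.76, and the latter was below its 0 min level in every replicate. Both were higher at 45 and 180 min than at 90 min in median, and the step was downward in 4 of 4 batches for each. The log2 fold changes were -1.28 ± 0.30 (adjusted p = 0.0045) and -1.02 ± 0.28 (adjusted p = 0.019), and the second was lost without batch 4 (-0.69, adjusted p = 0.33), batch 2 or batch 3. It was also lost without replicate 3 or 4 of 10 mM, or replicate 4 of 1 mM, at 90 min (adjusted p = 0.051 to 0.064). As tandem copies they may share reads, and the levels are low.

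Between 10 mM and 1 mM KNO3 no difference was called in any of the 166 genes. At 15, 45, 90 and 180 min 0 of 166 were called, as were 0.0% of all 18768 genes tested at each time, by edgeR. With the block and by DESeq2 0 of the 166 were called at each time as well. At an unadjusted p under 0.05 there were 5, 12, 21 and 6 of the 166 genes. The shares over all genes tested were 2.59%, 4.88%, 4.65% and 1.97%. The median log2 fold changes of the 166 genes were -0.03, -0.03, -0.13 and -0.04, beside 0.00, -0.01, 0.00 and -0.00 over all genes tested. The test does not show that the concentrations act alike: the 95% interval of the difference lay within 1 log2 unit on either side of 0 in 116, 125, 132 and 150 genes.

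At 90 min 113 of 166 genes were lower at 10 mM, while 50.3% of all genes tested were higher. Within batches the number lower was 83, 125, 100 and 88 of 166 in replicates 1 to 4, and the median difference on the log2(CPM + 1) scale was -0.01, -0.25, -0.09 and -0.03. The shift was thus largest in batch 2. Genes with a mean of at least 2 CPM had medians of 0.03, -0.08, 0.04 and -0.01 in replicates 1 to 4. DRM2 was at 283, 346, 406 and 369 CPM on 1 mM and 229, 280.0, 351 and 259 on 10 mM in replicates 1 to 4 at 90 min. It was lower on 10 mM in each replicate, by -0.33 on the log2 scale (95% interval -0.75 to 0.10).

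Some genes went the other way. SULTR1;2 was 0.37 higher at 10 mM at 90 min (interval 0.06 to 0.68, unadjusted p = 0.024, two-sided quasi-likelihood test in edgeR), GLT1 0.40 higher (0.13 to 0.68, unadjusted p = 0.0066) and BOR1 0.63 higher (unadjusted p = 0.0030). These 3 were picked out after their values were seen, and none passed adjustment over all genes, where the smallest adjusted p of the 166 genes at 90 min was 0.80.

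AT5G52790, a CBS domain protein, had the smallest p in the test of all 4 times together, and the call changed with the fit. Its adjusted p in edgeR was 0.51 without and 0.031 with the replicate block. With the block it was the 1 gene of 166 called, and 1 of 16 among all genes tested. Without the block 0 of 166 (0.0% of all tested) were called. There 15 of the 166 had an unadjusted p under 0.05, where 2.78% of all genes tested did. At 90 min it had 18.1, 17.9, 15.2 and 15.3 CPM at 1 mM and 26.3, 28.5, 27.1 and 21.4 at 10 mM. All 4 libraries at 10 mM lay above all 4 at 1 mM, with a log2 fold change of 0.65 ± 0.18. At 45 and 180 min it was 0.56 and 0.61 higher at 10 mM. At 15 min the groups overlapped, with 5.73 to 11.5 CPM over both and a difference of 0.23 ± 0.22, and replicate 1 was lower at 10 mM.

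**Figure D5:**
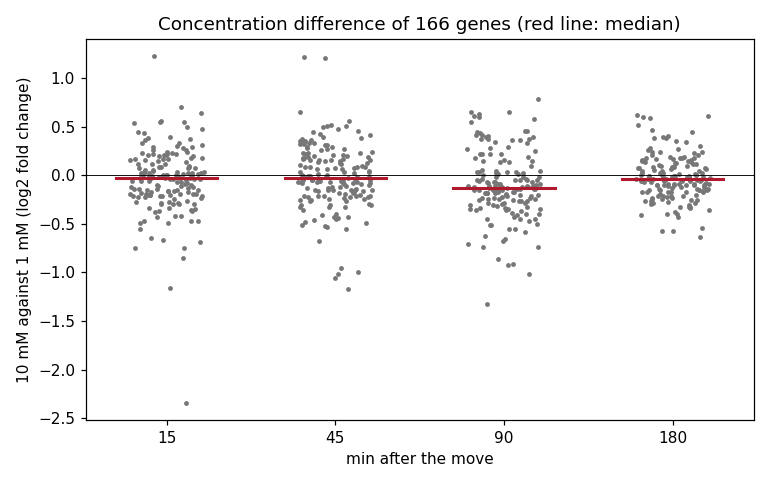
Each point is the log2 fold change of 10 mM against 1 mM for 1 of the 166 genes at 15, 45, 90 or 180 min, with the median as a red line. The medians lie at -0.03, -0.03, -0.13 and -0.04, and no point was called at an adjusted p under 0.05.

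Known gene groups were set beside the 166 genes in the same step from 45 to 90 min. Among 20 low-energy marker genes tested, 6 rose and 1 fell: the raffinose synthase family gene DIN10 rose by 1.29 ± 0.10, SIP2 by 1.02 ± 0.19 and BGAL4 by 0.80 ± 0.16, with bZIP63, GDH1 and TPS10 as the 3 of these already described, while the growth gene EXO fell by 1.33 on the log2 scale. Of 7 morning clock genes 0 rose and 4 fell, LHY by -1.18 ± 0.15 and CCA1 by -0.56 ± 0.10 on the log2 scale, and LNK2 and LNK3 with them. Of 15 evening and output clock genes 0 rose and 1, the morning-peaking activator RVE8, fell (-0.49 ± 0.11). This list is not of evening-peaking genes alone, since it also holds PRR7, PRR9, CDF1, CDF2 and CDF3. Without the library that stood apart 1 gene of the evening and output list rose and 2 fell, 3 morning genes fell and 5 low-energy genes rose. GI, TOC1, PRR3 and PRR5 were not in the evening list. The median log2 fold changes of these lists were 0.38, -0.32 and 0.13, beside -0.00 over all genes tested.

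Of 11 class III glutaredoxins 4 rose, ROXY2 by 1.28 ± 0.16 and 3 tandem copies (AT4G15670, AT4G15680 and AT4G15690) between which reads may be split, while GRXS13, which is among the 166, had a step of 0.11 ± 0.16. Of 6 triterpene cluster genes 4 rose, by 0.36 to 0.67, and none of these is among the 166. Of 15 suberin synthesis genes 0 rose and 4 fell, FAR4 by -0.42 ± 0.11 for one. Of 14 flavonoid and phenylpropanoid genes 0 rose and 2 fell, F3H and FLS1.

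The other lists gave few calls. Of 7 cold response genes 0 rose and 1 fell (ERD10, -0.77 ± 0.15). Of 9 abscisic acid response genes 1 rose (TMAC2, 0.72 ± 0.14), of 6 proline genes 1 (PRODH1, listed as ERD5, 0.87 ± 0.16), of 13 branched-chain amino acid breakdown genes 1, of 19 aquaporins 2, of 11 iron uptake genes 2 and of 8 UMAMIT transporters 2, with 0 lower in each. Without the library that stood apart the aquaporin and iron counts were 1 each and that of branched-chain amino acid breakdown 2. Of 8 heat shock genes 0 were called.

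Cell type markers were followed because whole roots can change in makeup. The summed level of the 3 phloem markers ran from 91.8 to 108 CPM at 0 min and from 133 to 166 at 180 min, without overlap. By gene, the rises at 180 min were 0.97 for SUC2, 0.19 for APL and 0.06 for SEOR1, so the higher sum came mostly from SUC2. From 45 to 90 min 1 of 3 (APL) rose by 0.73 ± 0.11, from a rise of -0.52 at 45 min to 0.19 at 90 min. The 8 endodermis markers summed to 636 to 687 and 665 to 825 CPM, ranges that overlapped. The 17 shoot photosynthesis markers summed to 124 to 149 and 125 to 166 CPM. Root hair (420 to 486, and 320 to 470 CPM), xylem (383 to 439, and 332 to 471) and root tip division markers (144 to 180, and 137 to 162) overlapped between 0 and 180 min, with 0 calls in the step. None of the markers is among the 166 genes, and the part of the phloem markers in their rise was not tested.

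The genes lie on all 5 chromosomes, with 49, 25, 25, 22 and 45 on chromosomes 1 to 5, where 4506, 2622, 3426, 2653 and 4070 genes had a mean of at least 2 CPM. In 5 places 2 or 3 of them follow each other with no other protein-coding gene between, 11 genes in all: AT1G47395 with AT1G47400, GRP9 with AT2G05510, CRK28 with CRK29, AT5G26280 with AT5G26290, and the 3 genes from AT5G41280 to AT5G41300.

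At 180 min the median rise was 1.28 both with and without the evening element. From 45 to 90 min 9 of the 26 with it rose (34.6%) and 74 of the 140 without it (52.9%), or 9 and 70 without the library that stood apart, and at 90 min their median rises were 0.76 and 0.99. MEE14, of the former, had 6.88 to 13.4 CPM at 0 min, 20.7 to 44.3 at 90 min and 51.3 to 89.1 at 180 min. No test was made of this split, which was drawn after the values were known.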

How the data were processed

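BrAD-seq, which reads the 3' ends of poly-A RNA, was used on 36 root libraries, per the labels' protocols. Each deposited table holds the authors' raw counts per gene, not normalized. The submitters' processing notes name FastQC, Bowtie2, SAMtools, HTSeq and build TAIR10. Their versions and settings, strand use included, were not given in the sources used here, so antisense and overlapping genes cannot be separated with certainty.

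CPM and rises were computed from the deposited counts with pandas 2.3.3 (Python 3.11.15). Tests used edgeR 4.0.16 (R 4.3.3) with TMM scaling, filterByExpr over the 9 groups and a two-sided quasi-likelihood fit of all 36 libraries, 1 coefficient per group and no block, adjusted over 18768 genes at 0.05. Alternatives were DESeq2 1.42.0, RLE scaling, no filter (25304 genes), the groups compared alone, a replicate block, and leaving out each library and batch. The script was run on simulated counts with the same spread for all genes and no difference between batches. That run does not test the fit under batch differences like those here. Values after ± are SE of log2 fold changes, worked back as the absolute fold change over the square root of the test's F. Intervals are 95%, taken from these SE and the normal distribution, so they are approximate. The overall dispersion corresponded to a coefficient of variation of 17.04%, and 12.1% after blocking.

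The replicate numbers pair the libraries: mean correlations of deviations between libraries of a number were 0.0022 to 0.389, and 31 of 36 were closest to their own number. Whether batches were separate sowings is not stated, so p-values measure the spread between these libraries. Over 54 replicate pairs the chi-square per degree of freedom was 2.62 to 11.6, so none looked like 1 library deposited again.

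Members, gene lists and roles were chosen with earlier results of these data known, and some genes were named for their known roles after their values were seen. The naming rule took the 12 largest rises, the 12 highest levels at 180 min, up to 8 calls per direction in the step and per test of concentration, up to 6 members of each list, genes at the thresholds and up to 12 transcription factors. Names, products and gene starts come from RefSeq, build TAIR10.1. No coordinates were converted between builds.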

Additional observations from a re-analysis of the deposited data

Results flagged for a closer look

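Over 144 groups of 4 libraries (library totals and 15 genes described by library, in 9 groups each) 4 values lay apart from the rest of their group by Dixon's test, where chance flags about 1 in 20 groups. GDH1 had 16.57 CPM in replicate 1 at 0 min, below the 25.5 to 27.2 of the other replicates. AT1G47400 had 3.087 CPM in replicate 2 of 1 mM at 15 min, above 1.08 to 1.40. RGF7 had 8.873 CPM in replicate 4 of 10 mM at 15 min, above 2.36 to 2.99. bZIP63 (BZO2H3) had 49.48 CPM in replicate 1 of 1 mM at 45 min, above 32.7 to 35.01. No cause was tested.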

How the results depend on the processing

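The count of genes called from 45 to 90 min with both concentrations averaged stayed within 1.5 times the 85 found in most settings tried. The exceptions were leaving out batch 2 (50), batch 3 (48) or batch 4 (55), and no cause of these lower counts was tested. Left-out libraries and batches gave 48 to 91 calls, and 81 without the library that stood apart, an alternative chosen after seeing the data. At 1 mM (41) the count was 71 with the replicate block and 20 when only the groups compared were fitted. It was 20, 16 and 25 without batches 2, 3 and 4, in a range of 16 to 49 over left-out libraries and batches. At 10 mM (36) it was 70 with the replicate block and 18, 12 and 16 without batches 2, 3 and 4, in a range of 12 to 39. The pooled step gave 110 with the replicate block and 90 by DESeq2. Over all genes tested 1984 were called with the block and 1245 by DESeq2, against 1149 in the main fit. The joint test of concentration called 1 gene with the replicate block and 0 without. The difference of the steps and the concentration differences at each time had 0 calls among the 166 genes under the alternatives tried. The rule kept 158 to 177 genes without 1 batch, 178 on TMM-scaled CPM (154 shared), 175 and 145 with pseudocounts of 0.5 and 2, 176 and 134 at CPM minimums of 1 and 5, 158 from 1 mM alone (131 shared) and 171 from 10 mM alone (141 shared). Among 15 genes followed through 25 settings no direction reversed. STP13 lost its call in 11 settings, AT1G47395 in 6 and SNRK2.9 in 1 (without batch 3, 0.80, adjusted p 0.198 in edgeR), and GLT1 passed in 7. Depth limits the low genes: 32 of the 166 had a mean under 5 CPM.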
